A study of Mus musculus with 2 samples.

Results

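The genes described here are 46 enzymes, carriers and regulators of fatty acid oxidation, ketone body use and the tricarboxylic acid (TCA) cycle, measured in the gastrocnemius (GAS) muscle of *Gde5* skKO and WT mice. They were chosen by name, as the genes of these pathways in muscle, and no cut on their values was used. Earlier results of these data were known when they were chosen. Every probe on the arrays that carries the name of a member, or an older or current alias of it, was taken. All 46 were measured, out of 13572 genes measured in all, through 69 probes and 87 spots.

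*Gde5* skKO mice carry HSA-Cre, a Cre transgene under the human skeletal actin promoter that is active in skeletal muscle fibres, together with Gde5 flox/flox alleles. The WT mice are labelled wild-type, and the methods describe the controls as flox/flox littermates without Cre. *Gde5*, also called *Gpcpd1*, encodes a phosphodiesterase that splits glycerophosphocholine. All mice were males of 15 weeks on a normal diet, and the design text gives 5 mice of each genotype. The paper describes array comparisons after a glucose injection and in fasting, and the labels do not say which of these the arrays hold, so the feeding state at dissection is not known here. *Pdk4* and *Angptl4* are known to respond to feeding state. Nothing states if the RNA of several mice was mixed, or if 1 pair of RNAs served both hybridizations.

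WT and *Gde5* skKO RNA were hybridized together to 2 arrays of 2 colours each. *Gde5* skKO RNA carried Cy5 on array 1 and Cy3 on array 2. Each value below is a log2 ratio of *Gde5* skKO over WT from the brightest probe of a gene, so 0 means equal signal. A gene was called higher or lower where each array gave it an Agilent Feature Extraction p-value below 0.05 and both ratios had the same sign. That p-value speaks for the spots of 1 hybridization, and no test across mice was possible. Fewer cells of a type and less RNA per cell cannot be told apart in whole muscle. The muscle genes *Acta1*, *Ckm*, *Des* and *Ttn* were well above background in all 4 channels, and none of the 8 muscle markers was called. Of the 4 *Gpcpd1* probes, 3 had ratios from -2.59 to -3.29 and the other had -0.05 on array 1 and -0.47 on array 2.

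Muscle takes up fatty acids that lipoprotein lipase releases at the capillary wall, joins them to coenzyme A, and moves them into mitochondria as carnitine esters. The beta-oxidation spiral then shortens them step by step to acetyl-CoA and hands electrons to the respiratory chain through flavoproteins. Acetyl-CoA from fat, from ketone bodies and from pyruvate enters the TCA cycle at citrate synthase, and pyruvate dehydrogenase kinases set how much pyruvate is let in. Many of these genes are known targets of the fatty acid sensors of the PPAR family, and they are more active in slow, oxidative fibres than in fast ones.

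Among the 46 members, *Angptl4* and *Pdk4* were called higher, which is 4.35% of them, and none was called lower. Over all genes, 1.58% were called higher and 1.73% lower. A further member, *Ucp2*, passed the threshold on both arrays with opposite signs, as did 1.58% of all genes. The other members had mean ratios from -0.24 for *Oxct1* to 0.45 for *Hadha*.

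*Angptl4* encodes a secreted inhibitor of lipoprotein lipase that rises with fatty acid supply. Its probe lies on the minus strand of chromosome 17 of mm8, from 33381815 to 33381874. On array 1 its processed signal was 3479 in *Gde5* skKO and 1681 in WT. On array 2 it was 3265 and 2125. Both *Gde5* skKO values lay above both WT values. The log2 ratios were 1.05 and 0.62, a mean of 0.83 ± 0.30 (SD, 2 arrays) or 1.78-fold, with Feature Extraction p-values of 3.336e-06 and 0.003496. After background correction and loess normalization in limma the ratios were 0.42 and 0.92, so the array with the larger ratio changed, with a mean of 0.67 ± 0.13 (SE) and a limma adjusted p of 0.07548.

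*Pdk4* encodes a kinase that switches off pyruvate dehydrogenase and so spares glucose when fat is burned. Its probe lies on the minus strand of chromosome 6 of mm8, from 5433441 to 5433500. The processed signal was 35431 in *Gde5* skKO and 23834 in WT on array 1, and 30511 and 17214 on array 2. Here too both *Gde5* skKO values were above both WT values. The log2 ratios were 0.57 and 0.83, a mean of 0.70 ± 0.18 (SD, 2 arrays) or 1.62-fold, with Feature Extraction p-values of 0.006609 and 0.0001472. In limma the mean was 0.69 ± 0.10 (SE) with an adjusted p of 0.02268.

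*Ucp2* and *Ucp3* encode mitochondrial carriers that are induced by fatty acids, and *Ucp3* is the form of skeletal muscle. The *Ucp2* probe read 48.7 in *Gde5* skKO and 97.3 in WT on array 1, and 90.5 and 48.4 on array 2. The Cy3 channel was the brighter on both arrays, whichever genotype it held, and the ratios were -0.998 and 0.90. The mean of -0.05 therefore averages values of opposite sign, and for 2 further *Ucp2* probes all channels were near background. *Ucp3* read 898 in *Gde5* skKO and 914 in WT on array 1, and 1065 and 1085 on array 2. Its ratios were -0.03 on each array, with p-values of 0.9003 and 0.8963.

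**Figure D1:**
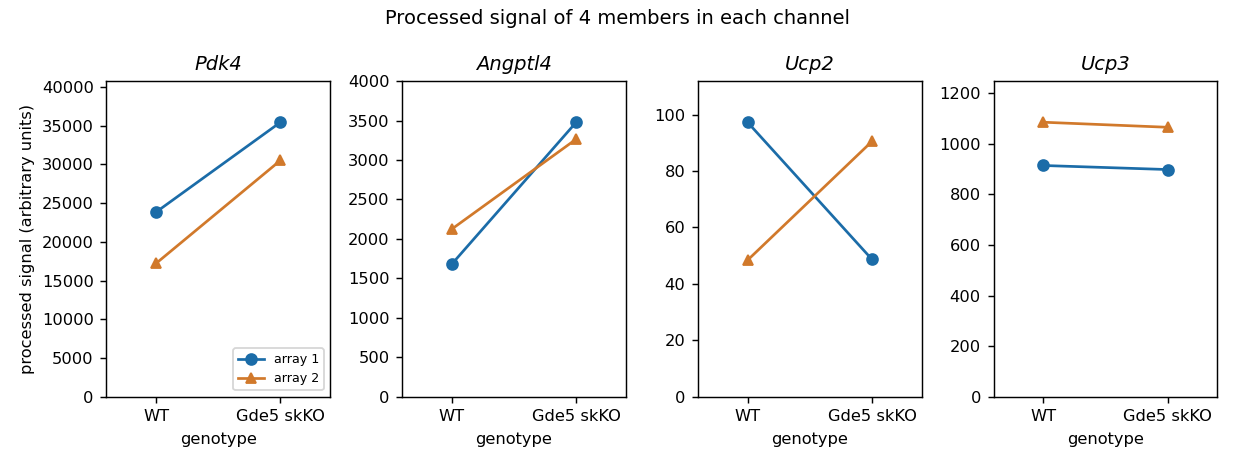
Processed signal in arbitrary units (vertical axis, from 0, scaled for each gene) of *Pdk4*, *Angptl4*, *Ucp2* and *Ucp3* in the WT and *Gde5* skKO channels, with a line joining the 2 channels of an array. The lines of *Pdk4* and *Angptl4* climb on both arrays, those of *Ucp2* cross, and those of *Ucp3* are nearly flat.

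The promoter windows of *Pdk4* and *Ucp3* are shown because the former was called and the latter, picked after the values were seen, had ratios near 0 on both arrays. They are the 250 bases before the RefSeq start in GRCm38.p6, at chr6:5496279-5496528 on the minus strand and chr7:100472741-100472990 on the plus strand, and capitals mark the motif found.
Pdk4: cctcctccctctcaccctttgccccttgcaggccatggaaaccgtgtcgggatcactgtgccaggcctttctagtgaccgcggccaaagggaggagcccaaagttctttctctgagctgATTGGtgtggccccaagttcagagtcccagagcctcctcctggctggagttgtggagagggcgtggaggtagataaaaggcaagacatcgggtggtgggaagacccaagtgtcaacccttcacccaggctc
Ucp3: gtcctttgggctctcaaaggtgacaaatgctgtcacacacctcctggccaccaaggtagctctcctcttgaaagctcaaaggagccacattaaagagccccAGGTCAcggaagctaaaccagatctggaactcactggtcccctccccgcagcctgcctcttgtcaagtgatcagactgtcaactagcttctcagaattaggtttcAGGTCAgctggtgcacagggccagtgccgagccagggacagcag
The capitals in the *Pdk4* window are a CCAAT box read on the opposite strand, 131 to 127 bases before the start. Those in the *Ucp3* window are AGGTCA, the core of many nuclear receptor sites, at 149 to 144 and at 44 to 39 bases before the start.

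Promoter windows were matched for 38 of the 46 members, 47 windows in all against 32851 windows of 27025 genes. Each motif was searched on both strands. AGGTCA was found in 8 member windows, 17% against 14% of all windows, in *Acadm*, *Acadvl*, *Cd36*, *Cpt1a*, *Echs1*, *Fh1*, *Sucla2* and *Ucp3*. CCAAT was found in 22 member windows, 46.8% against 33.8%. No member window held the direct repeat of AGGTCA with 1 base between its copies, which is in 0.0335% of all windows, or TCAAGGTCA, which contains AGGTCA and is in 0.387%. GTAAACA, in 3.17% of all windows, and TATAAA, in 12.4%, were also found in no member window. Member windows had a median GC content of 58.8% against 52.4%, and these shares are descriptions of the letters only.

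As a set, the members had small ratios that lay above 0 more often than those of all genes. Their median was 0.19 on array 1 and 0.15 on array 2, against 0.01 and 0.02 over all genes. Ratios were above 0 on both arrays for 25 of 46 members, 54.3%, where 29.2% of all genes were. They were below 0 on both arrays for 4 members, 8.7%, where 25.3% of all genes were, and the signs differed between arrays for 17. The mean ratio was above 0 for 38 members, 82.6% against 53% of all genes. Members are highly expressed genes of related function and are not independent of each other, so no test was made on these counts. The members were also chosen with earlier results of these data known. Among the 2833 genes at least as bright as the lower quartile of the members, a comparison added after the values were seen, 29.1% were above 0 on both arrays and the median mean ratio was -0.01. The 34 members in that range had 47.1% above 0 on both arrays and a median of 0.13.

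**Figure D2:**
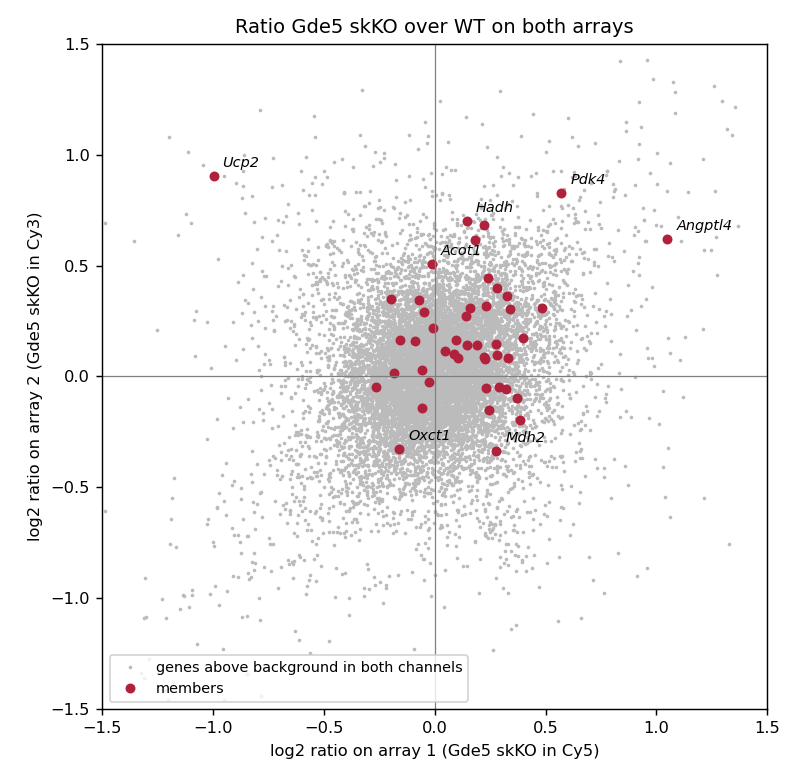
Log2 ratio of *Gde5* skKO over WT on array 1 (horizontal) against array 2 (vertical), for genes well above background in both channels (grey, 12292 within the axes and 30 outside) and the 46 members (red). The members shift to the upper right of the grey cloud, with *Angptl4* and *Pdk4* outermost there and *Ucp2* at the upper left.

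The size of a ratio that could be called was limited by the error that Feature Extraction gives each spot. The median error of a member's ratio was 0.20 on the log2 scale on each array. The largest member ratio that missed the threshold was 0.40 in size, and the smallest that passed it was 0.44. *Acaa2*, with 10 spots of its probe on each array, had an SD between spots of only 0.07 on array 1 and 0.10 on array 2. The median difference between the arrays was 0.21 in size for members and 0.22 for all genes. The limma test, whose error comes from the spread between the 2 arrays moderated over all genes, gave an unadjusted p under 0.05 with a higher ratio for 10 members, 21.7% of them against 4.24% of all genes. They were *Angptl4*, *Fabp3*, *Acsl1*, *Cpt2*, *Hadha*, *Hadh*, *Eci1*, *Acaa2*, *Pdk4* and *Ogdh*. No member was lower by that test, where 4.3% of all genes were. After Benjamini-Hochberg adjustment in limma over all genes *Pdk4* was the 1 member left, 2.17% against 0.295% of all genes.

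Uptake and activation had group medians of 0.31 on array 1, the highest there, and 0.24 on array 2, where beta-oxidation and the group of *Pdk4* were higher, with 5 of 6 genes above 0 on both arrays. *Fabp3*, the fatty acid binding protein of heart and muscle, had ratios of 0.40 and 0.17. *Slc27a1*, a fatty acid transporter that also activates its cargo, had 0.34 and 0.31, and its second probe had 0.39 and 0.31. Neither passed the threshold on either array. *Acsl1*, the main acyl-CoA synthetase of oxidative tissue, had 0.28 and 0.15 at its brightest probe. A dimmer probe, on the plus strand of chromosome 8 of mm8 from 48033237 to 48033296, had 0.45 and 0.43 and would be called, so the probes of *Acsl1* disagree on the call and not on the direction. Another *Acsl1* probe had an outlier mark on array 2 and was left out. *Lpl*, the lipase itself, had 0.23 and 0.08, and the fatty acid receptor and transporter *Cd36* had -0.07 and 0.34.

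The carnitine shuttle had group medians of 0.14 and 0.15, and none of its 6 genes was called. *Cpt1b*, the muscle carnitine palmitoyltransferase of the outer membrane and the step that malonyl-CoA inhibits, had ratios of -0.18 and 0.02. Its signals were 16769 in *Gde5* skKO and 19030 in WT on array 1, and 19484 and 19250 on array 2. A dimmer *Cpt1b* probe had 0.09 and 0.31, so the sign depends on the probe. *Cpt2*, the enzyme of the inner membrane, had 0.32 and 0.36. Its limma p was 0.007862, and 0.2659 after Benjamini-Hochberg adjustment. *Cpt1a*, the liver form, had 0.22 and 0.09 over 10 spots. The carrier *Slc25a20* had 0.09 and 0.17, the carnitine acetyltransferase *Crat* had -0.05 and 0.29, and *Mlycd*, which breaks down malonyl-CoA, had 0.19 and 0.14. In limma the *Mlycd* ratios were -0.15 and 0.38.

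In the beta-oxidation spiral 8 of 11 genes were above 0 on both arrays and none was below 0 on both, with medians of 0.15 and 0.31. The largest mean ratios without a call in the whole set were those of *Hadha* and *Hadh*. *Hadha*, the alpha subunit of the trifunctional protein, read 3005 in *Gde5* skKO and 2572 in WT on array 1, and 3925 and 2449 on array 2. Its ratios were 0.22 and 0.68 with p-values of 0.2742 and 0.00142, so array 2 alone passed. A dimmer probe that was well above background in 4 of 4 channels had 0.13 and 0.79. *Hadhb*, the beta subunit of the same complex, had -0.01 and 0.22.

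*Hadh*, the hydroxyacyl-CoA dehydrogenase for shorter chains, read 9226 in *Gde5* skKO and 8345 in WT on array 1, and 11599 and 7137 on array 2. Its ratios were 0.15 and 0.70, and the p-value of 0.001054 on array 2 was past the threshold where that of 0.4787 on array 1 was not. *Eci1*, the isomerase for unsaturated chains, named *Dci* on the array, was the reverse case, with 0.49 and 0.31 and a p-value of 0.0199 on array 1. Its reductase partner *Decr1* had 0.28 and 0.10. *Acaa2*, the thiolase that releases acetyl-CoA, had 0.23 and 0.32. The acyl-CoA dehydrogenases, which open each turn for a given chain length, had mean ratios of 0.10 for *Acadvl*, 0.23 for *Acadl*, 0.08 for *Acadm* and 0.20 for *Acads*. Of these 4, *Acadm* changed sign, with -0.20 and 0.35. The hydratase *Echs1* had -0.06 and 0.03.

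The electron transfer flavoproteins did not share the direction of the spiral on both arrays. Their group median was 0.23 on array 1 and -0.10 on array 2, and 0 of 3 genes were above 0 on both. *Etfa*, the alpha subunit, had 0.23 and -0.05, and *Etfb*, the beta subunit, had -0.06 and -0.14. *Etfdh*, the membrane enzyme that passes the electrons to ubiquinone, had 0.37 and -0.10. A dimmer *Etfdh* probe had 1.04 and -0.30.

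*Acot1* and *Acot2*, the cytosolic and mitochondrial thioesterases that free fatty acids from coenzyme A, are near-identical copies, so the values of either are uncertain. With *Pdk4*, *Ucp2* and *Ucp3* they form a group with medians of -0.01 on array 1 and 0.51 on array 2. *Acot1* had ratios of -0.01 and 0.51 and *Acot2* had 0.28 and 0.40. On array 2 the p-value of *Acot1* was 0.02426, and that of *Acot2* was 0.06462.

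Ketone body use was the group with negative medians on both arrays, -0.16 and -0.05, and 2 of its 3 genes were below 0 on both. *Oxct1*, the transferase that activates acetoacetate in muscle, had ratios of -0.16 and -0.33, with signals of 74275 in *Gde5* skKO and 82983 in WT on array 1, and 72962 and 91606 on array 2. It was not called, and 2 dimmer *Oxct1* probes had -0.21 on array 1 and 0.11 or 0.13 on array 2. *Bdh1*, the hydroxybutyrate dehydrogenase, had -0.26 and -0.05, but 0.60 and -0.07 at a dimmer probe. In limma the brightest *Bdh1* probe had -0.67 and 0.26, so its arrays did not share a sign there. *Acat1*, the thiolase that ends the path, had -0.09 and 0.16. Averaged over all probes, the group median was 0.04, so its sign rests on the choice of probe.

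The TCA cycle and malate shuttle had medians of 0.24 on array 1 and 0.08 on array 2, with 6 of 12 genes above 0 on both and none below 0 on both. None of the 3 subunits of NAD-dependent isocitrate dehydrogenase was called, and the order of their ratios changed between arrays. *Idh3b* read 53356 in *Gde5* skKO and 47040 in WT on array 1, and 59636 and 38924 on array 2. Its ratios were 0.18 and 0.62, with p-values of 0.3746 and 0.003634, and in limma they were -0.21 and 0.67. *Idh3a*, the catalytic subunit, had 0.32 and -0.06, and *Idh3g* had -0.16 and 0.16. *Idh2*, the NADP-dependent enzyme, had 0.10 and 0.08.

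*Ogdh*, which turns oxoglutarate into succinyl-CoA, gave 0.24 and 0.44, with array 2 past the threshold, and a second probe had 0.33 and 0.36. *Dlst*, the next subunit of that complex, had 0.33 and 0.08. Fumarase, *Fh1*, had 0.15 and 0.14, the closest pair among the genes with ratios above 0.1 on both arrays. *Suclg1*, of succinyl-CoA ligase, had 0.05 and 0.11, and its partner *Sucla2* had 0.24 and -0.15. Citrate synthase, *Cs*, had 0.29 and -0.05. At their brightest probes the malate dehydrogenases were among the most discordant members. *Mdh2*, the mitochondrial form, read 135590 in *Gde5* skKO and 111898 in WT on array 1, and 119525 and 150931 on array 2, where the order was turned. *Mdh1*, the cytosolic form, had 0.39 and -0.20. A dimmer *Mdh1* probe that was well above background in 4 of 4 channels had 0.30 and 0.16, so the discordance depends on the probe.

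**Figure D3:**
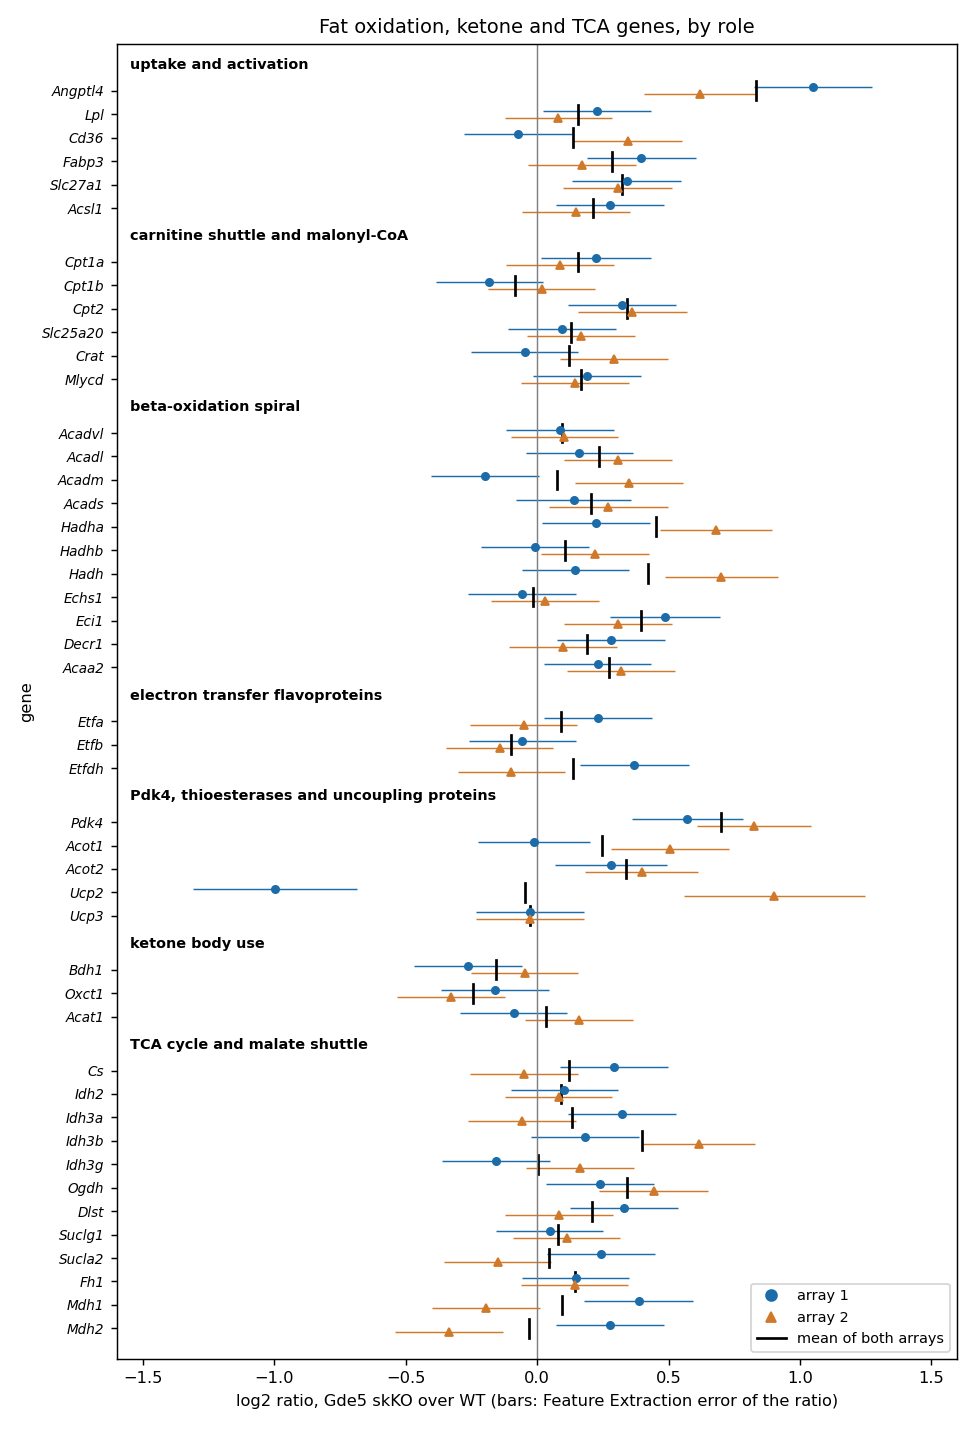
Log2 ratio of *Gde5* skKO over WT (horizontal) for each of the 46 members by role, with array 1 as circles, array 2 as triangles, the Feature Extraction error of each ratio as bars and the mean of both arrays as a black tick. *Angptl4* and *Pdk4* have both points clear of 0, the beta-oxidation genes lie mostly to the right of 0, and *Ucp2* and *Mdh2* have points on either side.

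Of the 46 members, 29 had 1 probe and 17 had several. In 6 of the 17, *Lpl*, *Slc27a1*, *Acsl1*, *Cpt1a*, *Hadha* and *Ogdh*, every probe was above 0 on both arrays, though the dim second probe of *Cpt1a* had 1.22 and 0.00. In the other 11, *Cd36*, *Cpt1b*, *Decr1*, *Etfdh*, *Ucp2*, *Bdh1*, *Oxct1*, *Cs*, *Dlst*, *Sucla2* and *Mdh1*, the sign differed between arrays or between probes. A dim *Mdh1* probe had 0.63 and -1.20.

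**Figure D4:**
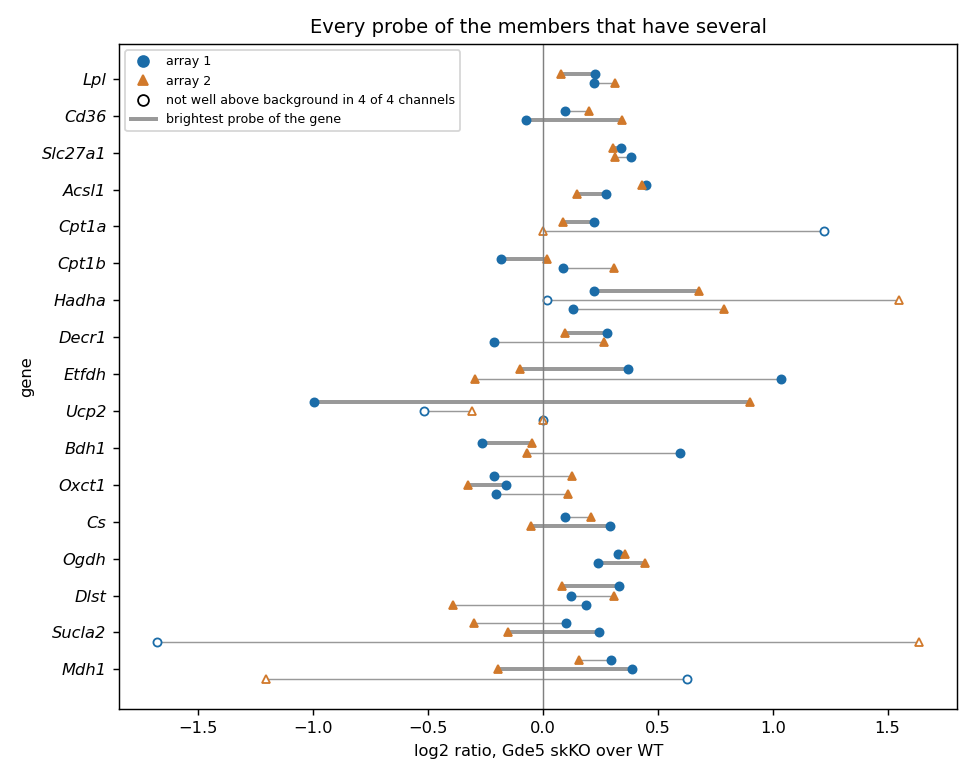
Log2 ratio of *Gde5* skKO over WT (horizontal) for every probe of the 17 members with several probes, array 1 as circles and array 2 as triangles joined by a line that is thick for the brightest probe, with open symbols for probes not well above background in 4 of 4 channels. The probes of *Slc27a1* and *Ogdh* sit close together above 0, while the dim probes of *Hadha*, *Sucla2* and *Mdh1* spread widely.

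Other genes of the pathways showed a weaker shift. Of 83 listed, 77 were measured, and their median was 0.07 on array 1 and 0.08 on array 2, with 33 above 0 on both arrays and 13 below. Of these 77, 1 was called higher and 2 lower, where 1.58% and 1.73% of all genes were, so the counts are near those shares. *Plin3*, a lipid droplet coat protein, was called higher, with 0.91 and 0.86. The acyl-CoA synthetases *Acsl3* and *Acsl4*, which serve lipid synthesis and arachidonate more than oxidation, were called lower, with -0.94 and -0.62 for *Acsl3* and -0.66 and -0.83 for *Acsl4*. Of the other pyruvate dehydrogenase kinases, *Pdk1* had 0.35 and 0.18, *Pdk2* had 0.02 and 0.34 and *Pdk3*, a dim probe, had 0.54 and 0.38, none of them called.

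Markers of slow and oxidative fibres also lay mostly above 0, with medians of 0.49 and 0.46 against 0.19 and 0.15 for the members. Of 12 markers, 4 were called higher, *Myl2*, *Csrp3*, *Tnni1* and *Casq2*, with mean ratios from 0.67 to 0.84, and 10 were above 0 on both arrays. Over all genes, 1.58% were called higher and 29.2% were above 0 on both arrays. Their summed signal was 265224 and 268790 in *Gde5* skKO and 195231 and 201810 in WT. *Myh7*, the slow myosin heavy chain, had 0.30 and 0.36 and was not called. In the paper, qPCR of fibre-type mRNAs gave comparable levels in both genotypes. The fibre-type primers it lists are for the myosin heavy chains *Myh7*, *Myh2*, *Myh1* and *Myh4*, and the 4 called markers are not among them. None of the 12 fast glycolytic markers was called, and their median was -0.02 on array 1 and -0.17 on array 2. The part of fibre type in the ratios of the members was not tested.

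Adipocyte and liver genes also differed between the RNAs. Beside the counts that follow, 1.58% of all genes were called higher and 1.73% lower. Of 12 adipocyte markers 9 were measured and 5 were called lower, among them *Adipoq* with a mean of -1.001 and *Plin1* with -0.69, while *Car3*, which muscle also expresses, was higher with 0.94. *Car3* itself read 42553 and 40332 in *Gde5* skKO and 21232 and 22125 in WT. The summed adipocyte signal, *Car3* included, was 86658 and 82226 in *Gde5* skKO and 65769 and 67944 in WT, and all channels left *Lep* and *Adig* at background. The other measured markers were not called, with 0.13 and -0.02 for *Fabp4*, 0.28 and 0.10 for *Lipe* and 0.18 and -0.03 for *Thrsp*. *Lpl*, *Cd36* and *Angptl4* are expressed in adipocytes too. Of 15 hepatocyte markers 8 were measured. Of these, 3 were called lower, *Mup1*, *Ahsg* and *Fgg*, and 1 higher, *Apoh*, while *Alb*, with -1.03 and -0.28, was not called. Summed signals were 1758 and 1851 in *Gde5* skKO and 3037 and 2886 in WT. Most of each sum was *Mup1*, with 1021 and 1042 in *Gde5* skKO and 2031 and 2008 in WT. All channels left *Apoa1* and *Apoa2* at background. Of 10 endothelial markers 1 was called higher, *Kdr* with 0.41, and none of the 8 immune or 4 blood cell markers measured was called. The part of these cell types in the members' ratios was not tested.

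**Figure D5:**
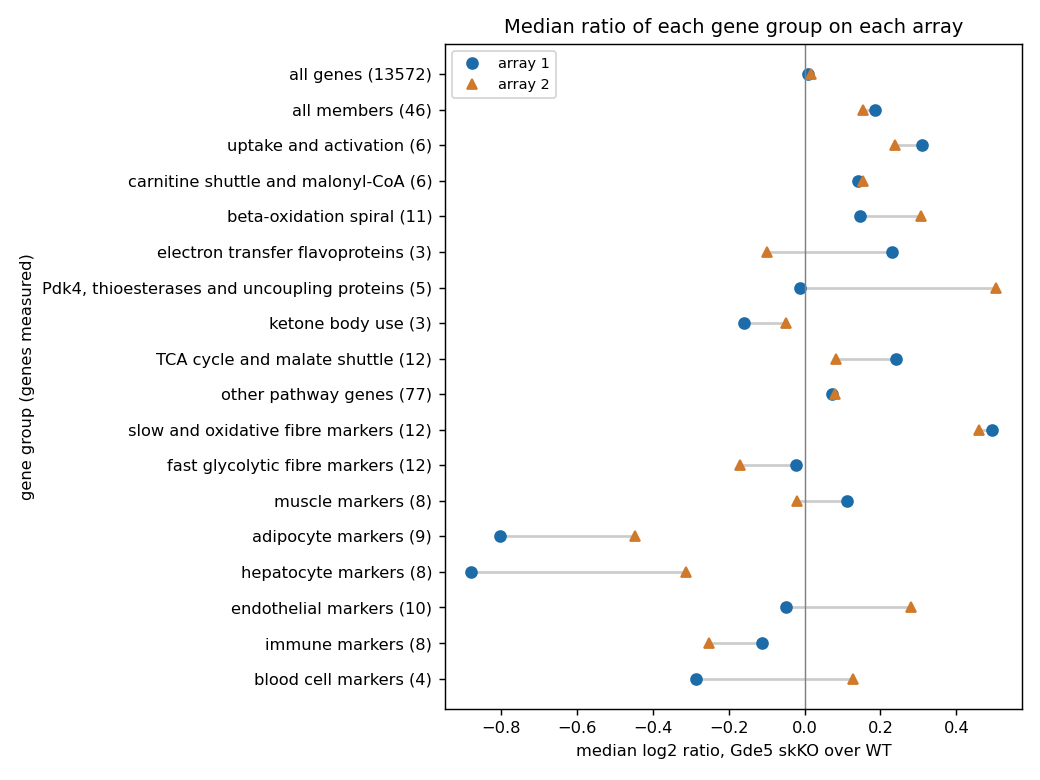
Median log2 ratio of *Gde5* skKO over WT (horizontal) of each gene group on array 1 (circles) and array 2 (triangles), with the number of genes measured in brackets. All members lie at 0.19 and 0.15, slow fibre markers at 0.49 and 0.46 and adipocyte markers at -0.80 and -0.45, while all genes lie near 0.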

How the data were processed

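Gene expression was measured in GAS muscle on 2 dye-swapped Agilent arrays, on 1 slide and from 1 scan. The authors extracted the scans with Agilent Feature Extraction (9.5 in the submitters' processing notes, 9.5.3.1 in the headers). The deposited log10 ratio of Cy5 over Cy3 is background-subtracted, detrended and dye-normalized, and the deposited p-value comes from the error model of that software. The authors' files also hold the intensity of each spot and its background, and the deposited series table repeats the log10 ratios.

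Ratios were put on the log2 scale with *Gde5* skKO over WT as the direction. Control spots, outlier spots (164 on array 1 and 200 on array 2 of 43379) and 16 debris spots on array 1, whose background was over 1.5 times the array's median, were left out, and spots of a probe were averaged. A gene took its brightest probe and was measured if each array had it well above background in 1 channel or more. Probes were named before outlier and debris spots were left out. Through RefSeq, 24305 were named by accession, 6299 by symbol and 2425 by synonym, 70 were named by member name, and 8075 kept the file's name. After those spots were left out, 41110 probes remained, 69 of them of members. Probes of *Oxct2a* were not taken for *Oxct1*. Probe coordinates are mm8. Promoters are RefSeq sequences of GRCm38.p6. The share of spots well above background was 44.6% to 53.2% per channel. No member spot was saturated, and precision is limited by having 2 arrays.

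Members and lists were chosen with earlier results of these data known. The text may name any member; channel signals are given for called members, those with opposite signs and the 3 largest uncalled, and *Ucp3*, *Cpt1b*, *Oxct1* and *Mdh2* were added after their values were seen. Listed genes other than those called or heading a list were also named after their values were seen. Alternatives were normexp (offset 50) with loess (limma 3.58.1, on R 4.3.3), loess alone, the series table, stricter thresholds, filters, all probes, the methods' t-test, the moderated test of limma and each array alone. Steps were tested on simulated data in which the planted ratios were larger than the mean ratio of any member. That test does not speak for ratios of the members' size. The scripts ran on Python 3.11.15 with pandas 2.3.3, numpy 2.4.6, matplotlib 3.10.9 and scipy 1.17.1.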

Additional observations from a re-analysis of the deposited data

How the results depend on the processing

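*Angptl4* and *Pdk4* were the members called higher at p under 0.01, with a size of 0.5 or more besides, and with the mean over all probes. Both loess normalizations and the series table kept the deposited p-values, so a change of sign alone could end a call there, and none did. All members were above background in both channels, so the filters on dim probes could not change their calls. Calling any probe of a gene, added after the data were seen, brought in *Acsl1*. Array 1 alone called 3 of 46 members higher, with 925 of all 13572 genes, and array 2 alone called 8, with 971. With p adjusted within each array, 0 members and 50 genes were higher. Limma called 10 members and 576 genes unadjusted, and 1 and 40 adjusted. The methods' t-test was run on the log signals of the channels, 2 of each genotype, without their pairing on an array. Unadjusted, it called *Angptl4* and *Cpt2* higher, with 617 genes, and after adjustment 0 members and 0 genes. For array 1 alone and the unadjusted t-test, the share of members was close to that of all genes. Members called lower were 1 on array 1 alone, with 721 genes, and 0 on array 2 alone, with 910 genes. Members with opposite signs were 0 with p adjusted within each array. Other pathway genes called higher were 3 to 6 on single arrays, 7 by limma unadjusted, 8 by the t-test and 0 by it after adjustment. Those called lower were 4 on each single array, 0 with p adjusted within each array, 5 and 1 by limma unadjusted and adjusted, and 4 and 0 by the t-test.

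The median over members was 0.15 to 0.19 on single arrays. Uptake and activation had 0.24 to 0.31, and 0.305 over all probes. The carnitine shuttle had 0.14 to 0.15, 0.104 in limma and 0.102 without background correction. Ketone body use had -0.160 to -0.048, and 0.035 over all probes, where the sign turned because other probes entered. The TCA group had 0.083 to 0.241. Other pathway genes had 0.073 to 0.080 on single arrays, 0.044 in limma, 0.047 without background correction, 0.063 with both channels above background and 0.092 over all probes. In the other cases the cause was not tested. Members above 0 on both arrays numbered 25 to 27 under the alternatives run, and in limma 54.3% of members against 26.5% of all genes. Limma turned the sign of the mean in 4 members, *Echs1*, *Ucp2*, *Ucp3* and *Mdh2*, all between -0.05 and 0.06. For 33 members no setting gave a call. Each array holds both genotypes, so every ratio is a comparison within 1 hybridization, and limma's test was made on those ratios.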
